A study of Mus musculus with 24 samples.

Results

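Pericytes and endothelial cells are the 2 cell types that together build the wall of a brain capillary. Cells sorted under these names were compared gene by gene in control mouse brains at E13.5. Both groups were sorted by flow cytometry from embryos with the genotype Pdgfrb-Cre, Alk5(flox/+), Zs/+, that is with Cre recombinase driven by Pdgfrb, 1 floxed copy of Alk5 (the type I receptor for TGF-beta, now named Tgfbr1) and a ZsGreen reporter. There were 4 control pericyte libraries and 5 control endothelial libraries, 9 of the 24 libraries in the series. The control cells are therefore not wild type: Cre acts in the cells of both groups' embryos that use Pdgfrb, which in the embryo includes mural cells and other mesenchyme. The label gives the cell type of the pericyte libraries as mesenchymal cells. Both names are used below as labels only, because the pericyte libraries also carried fibroblast and cartilage genes and the endothelial libraries blood cell genes. The gate of the endothelial sort, the number of embryos behind a library and the use of separate litters are not given in the sources used here. Mutant groups, with 4 pericyte and 3 endothelial libraries from Alk5(flox/flox) embryos labelled GMH-IVH as their disease state, are used only beside the control values, as are 4 control pericyte libraries of E11.5.

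Genes were taken where both E13.5 tables gave a control mean and at least 1 of the 2 means was 10 or more, which left 18943 of 19336 genes with a value in both tables. There were 23792 genes listed for pericytes and 20523 for endothelial cells. Every level below is the authors' mean normalized read count of a control group. The tables were normalized separately, so the pericyte over endothelial log2 difference of each gene was set relative to the median of all genes compared, a shift of 0.07. At the edge of the filter, Atcayos entered with 10.01 in pericytes and 8.88 in endothelial cells, and 1700001G11Rik stayed out with 4.05 in pericytes and 9.9994 in endothelial cells. The files used give group means and no values per library, so the cell types were compared by the size of the difference, set beside the limit on its SE given below, and a gene was called different past a 4-fold difference, 2 on the log2 scale.

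Brain capillaries form as endothelial tubes that grow into the neural tissue from vessels around it. Endothelial cells line the tube, seal it with tight junctions and carry nutrients across it. Pericytes sit outside the tube in a shared basement membrane and are recruited by platelet-derived growth factor that the endothelium secretes. In the forebrain many pericytes come from the neural crest, and they share many genes with the fibroblasts of the meninges.

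Past 4-fold, 2925 genes were higher in pericytes, 15.4% of those compared, and 1626 were higher in endothelial cells, 8.58%. The remaining 14392 genes, 76.0%, lay within 4-fold, and the middle of the distribution ran from a lower quartile of -0.98 to an upper quartile of 1.28 on the log2 scale. These shares are the background for every list below. An upper limit for the SE of each difference due to spread among libraries came from the ratio and p of mutant against control. These are in the authors' deposited tables, which carry the spread of all E13.5 libraries. The limit is itself an estimate and leaves out any bias between the 2 cell types in scale or transcript length. Its median was 0.25 over 16252 genes and its 95th percentile 0.91. Of 3932 genes past 4-fold that have such a limit, 35 lay within 2 SE limits of 0, and 1881 lay within 2 SE limits of the 4-fold line.

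The split between directions depended on how the tables were put on 1 scale. Setting the summed means equal moved the median of all genes by -0.20 and gave 2480 genes higher in pericytes and 1954 higher in endothelial cells, so that 55.9% of the calls were pericyte-high in place of 64.3%. Setting 24 widely expressed genes to 0 moved the median by 1.06 and gave 5798 genes higher in pericytes and 733 higher in endothelial cells, or 88.8% pericyte-high. Small negative differences, down to about 1 log2 unit, thus become positive under the second scaling, small positive ones can become negative under the first, and endothelial calls within about 1 log2 unit of the threshold are lost under the second. CT010467.1, an rRNA-like transcript, held 7.23% of the summed means in pericytes and 0.611% in endothelial cells. The difference also ran with transcript length and GC content, as described at the end. Its part in the differences was not tested.

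**Figure D1:**
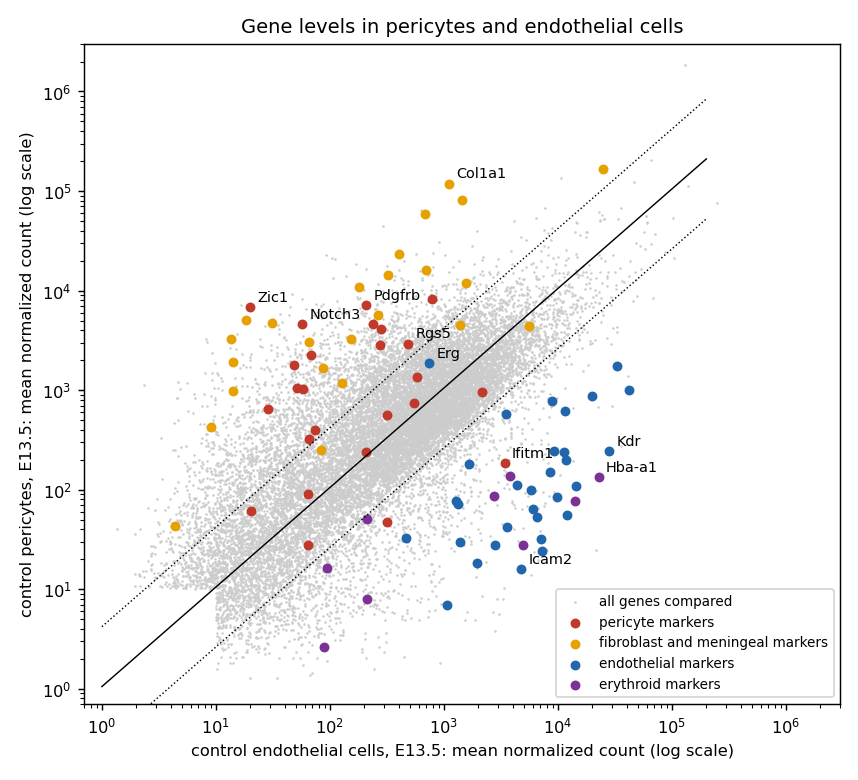
Authors' mean normalized counts of each gene in control pericytes (vertical) and control endothelial cells (horizontal) at E13.5, both on log axes. The solid line is the median of all genes, the dotted lines are 4-fold to either side, and single points are genes; Pdgfrb and Zic1 lie far above the lines and Kdr, Icam2 and Hba-a1 far below.

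Levels of defining genes of each cell type were read first. Pdgfrb drives the Cre of these embryos, so its level may not be independent of the sort. Pdgfrb, the receptor that pericytes need for recruitment, stood at 7160 in pericytes and 207 in endothelial cells, a log2 difference of 5.04 (SE at most 0.46). Rgs5, a regulator of G protein signalling that marks brain pericytes, stood at 2933 in pericytes and 486 in endothelial cells, a log2 difference of 2.52 (SE at most 0.47). Kdr, the main receptor for VEGF-A in endothelium, stood at 243 in pericytes and 27972 in endothelial cells, a log2 difference of -6.92 (SE at most 0.60). Kdr ranked at the 51.6th percentile of gene levels within the pericyte table and at the 99.8th within the endothelial table. Cldn5, the tight junction claudin of brain endothelium, had a mean of 27554 in endothelial cells and is listed without a value for pericytes. Pecam1 and Aplnr, 2 further endothelial genes with means of 20006 and 46073 there, are likewise listed without a value for pericytes.

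Of 25 pericyte markers compared, 15 were higher in pericytes past 4-fold and 2 in endothelial cells, with a median log2 difference of 2.52. Zic1, a zinc finger transcription factor of neural crest derivatives, had 6813 in pericytes and 19.8 in endothelial cells. Notch3, the Notch receptor of mural cells, had 4595 in pericytes and 57.3 in endothelial cells. Vtn, which encodes vitronectin, had 1779 in pericytes and 48.4 in endothelial cells. Ifitm1 and P2ry14 went the other way, with log2 differences of -4.28 and -2.80. Several genes that mark adult brain pericytes lay within 4-fold: Abcc9 had a log2 difference of 1.15, Gucy1a1 0.76, Ndufa4l2 0.40 and Foxf2 0.37. Higd1b was not analysed here.

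Of 31 endothelial markers compared, 30 were higher in endothelial cells past 4-fold and none in pericytes, with a median log2 difference of -5.89. Icam2, a leukocyte adhesion ligand, had 15.9 in pericytes and 4734 in endothelial cells. The adhesion receptor gene Adgrl4 had 24.3 in pericytes and 7212 in endothelial cells. Flt4, which encodes VEGF receptor 3, had 31.9 in pericytes and 7071 in endothelial cells, a log2 difference of -7.86. The exception was Erg, an ETS transcription factor of endothelium and cartilage, with 1868 in pericytes and 741 in endothelial cells. Its log2 difference of 1.26 was 0.62 between the mutant groups and -1.63 when E11.5 control pericytes took the place of those of E13.5.

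The pericyte libraries carried a broad mesenchymal signature. Of 24 fibroblast and meningeal markers compared, 21 were higher in pericytes and none in endothelial cells, with a median of 5.45. Twist1, a mesenchymal transcription factor, had 5015 in pericytes and 18.3 in endothelial cells. Cemip, a hyaluronan-degrading protein, had 3267 in pericytes and 13.6 in endothelial cells. Col1a1, the main fibrillar collagen chain, had 118865 in pericytes and 1101 in endothelial cells, and Tbx15 and Twist2 had log2 differences of 7.19 and 7.01. Of 18 cartilage and bone progenitor markers compared, 12 were higher in pericytes, among them Runx2, the master regulator of bone formation, with 5328 in pericytes and 218 in endothelial cells, and Col2a1, the cartilage collagen, with 50376 in pericytes and 4151 in endothelial cells. The summed level of the fibroblast list was 544481 in pericytes and 39182 in endothelial cells, and that of the pericyte list was 54357 in pericytes and 10434 in endothelial cells. In sorted bulk samples a difference in the number of such cells cannot be told apart from a difference in RNA per cell.

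Contractile genes were also on the pericyte side, though less uniformly. Of 19 smooth muscle and contractile genes compared, 10 were higher in pericytes and 2 in endothelial cells. Acta2, smooth muscle actin, had 2611 in pericytes and 65.0 in endothelial cells, and Tagln, which encodes an actin-binding protein of smooth muscle, 841 in pericytes and 25.8 in endothelial cells. Myh11, the heavy chain of mature smooth muscle myosin, stood at only 84.6 in pericytes and 5.76 in endothelial cells. Sncg and Pln were higher in endothelial cells, with log2 differences of -5.14 and -2.25.

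Neural genes past 4-fold were mainly on the pericyte side. Of 22 neuronal markers compared, 13 were higher in pericytes and 1 in endothelial cells, with a median of 2.30. Dlx2, a transcription factor of interneuron progenitors, had 161 in pericytes and 5.64 in endothelial cells, and the neurofilament gene Nefm had 628 in pericytes and 29.3 in endothelial cells. Rbfox3 went the other way, at -2.50. Of 13 neural progenitor markers compared, 7 were higher in pericytes, among them Emx2 at 5.41, and 2 in endothelial cells, Hes5 at -2.94 and Ednrb at -2.19; 7 more, among them Sox2 with 93.6 in pericytes, are listed in the pericyte table only. The summed level of the neuronal list was 11678 in pericytes and 3641 in endothelial cells, and the part of admixed neural cells in the pericyte-high genes was not tested.

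Blood cell genes were on the endothelial side. All 9 erythroid genes compared were higher in endothelial cells, with a median of -5.07, and Hba-a1, an alpha-globin, had 134 in pericytes and 22783 in endothelial cells. Of 20 myeloid markers compared, 10 were higher in endothelial cells and none in pericytes, led by P2ry12 at -4.46, while the macrophage genes Mrc1 and C1qc had log2 differences of 1.18 and 0.08. The remaining blood lists were chosen after these values were seen. All 12 megakaryocyte and platelet genes compared were higher in endothelial cells, including Gata1, the erythroid and megakaryocyte transcription factor, with 1.79 in pericytes and 921 in endothelial cells. All 6 mast cell genes compared were too, including the histamine-forming enzyme gene Hdc with 23.4 in pericytes and 6105 in endothelial cells. Of 8 lymphoid genes compared, 6 were higher in endothelial cells, including Il2rg at -6.96, and 1, Rag1, was higher in pericytes at 2.07. Of 5 granulocyte genes compared, 3 were higher in endothelial cells, including Mpo with 13.9 in pericytes and 5750 in endothelial cells. The part of admixed cells in the endothelial-high genes was not tested.

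**Figure D2:**
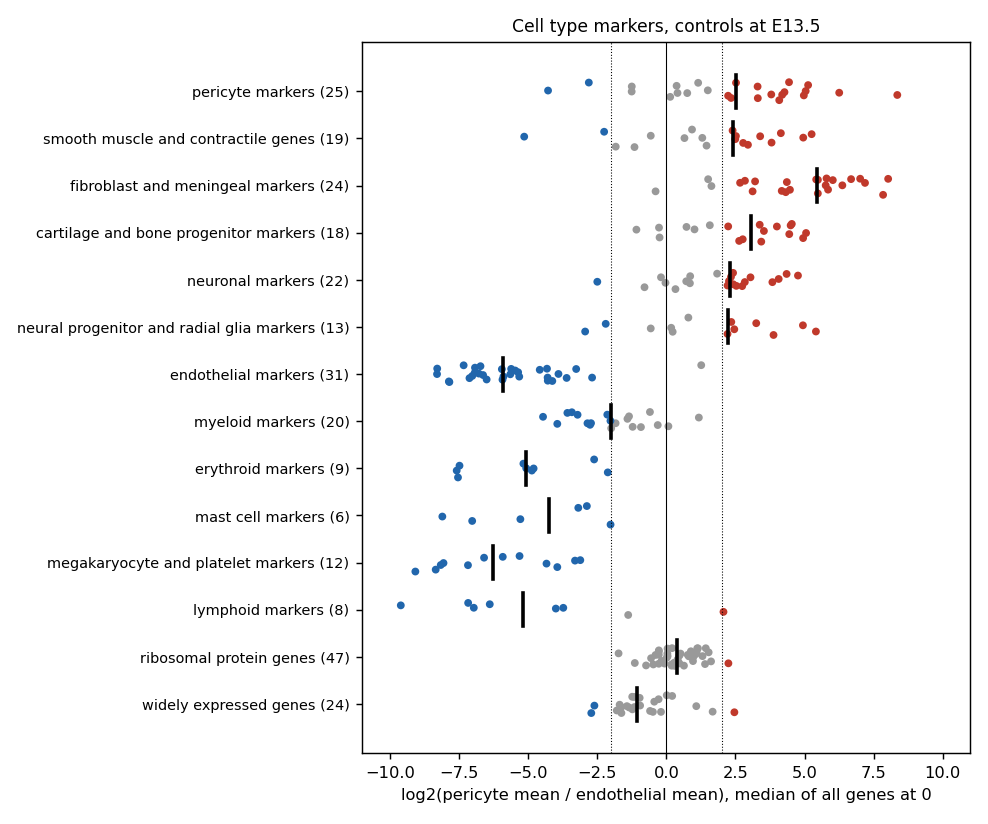
Log2 difference of pericyte over endothelial control means for each member of the marker lists, with the number compared in brackets; bars are list medians, dotted lines the 4-fold threshold, red points higher in pericytes and blue points higher in endothelial cells. The endothelial list and the 5 blood cell lists shown have medians of -2.01 or lower, and the 6 pericyte, mesenchymal and neural lists shown have medians above 2.

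The single genes that differed most were drawn from those with a mean of 500 or more in 1 group. On the pericyte side Mrc2, a collagen uptake receptor, led with 7086 in pericytes and 16.5 in endothelial cells, a log2 difference of 8.68 (SE at most 0.82). Vegfa, the main growth factor for endothelium, came next with 3282 in pericytes and 8.21 in endothelial cells, a log2 difference of 8.57 (SE at most 0.79). Pappa2, a protease that frees insulin-like growth factors, stood at 3007 in pericytes and 8.34 in endothelial cells. Others among the 15 were Zic1, Twist1, the collagens Col6a3 and Col8a2, the calcium channel gene Cacna1g, the cytokine receptor gene Cntfr, the synaptic genes Shank1 and Dnm1, the cadherin gene Cdh24, the Wnt regulator Dact3 and Cemip, with log2 differences from 7.56 to 8.35.

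On the endothelial side Prnd, which encodes the prion-like protein doppel, led with 24.8 in pericytes and 21645 in endothelial cells, a log2 difference of -9.84 (SE at most 1.08). Slc38a5, an amino acid transporter gene, had 5.62 in pericytes and 3011 in endothelial cells. Sox7, a SoxF transcription factor of endothelium, had 24.8 in pericytes and 7936 in endothelial cells. The others among the 15 were Gimap1, Gata1, Ctla2a, Ushbp1, Mpo, Kcne3, Depp1, Klhl4, Pde2a, F2rl2, Icam2 and Adgrl4. Their log2 differences ran from -9.60 for Gimap1 to -8.29 for Adgrl4, and Gata1, Mpo, Gimap1 and F2rl2 also belong to the blood cell lists.

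Some genes were listed in 1 table only and have no difference. The pericyte table alone listed 4441 genes, of which 4436 had a value, 2227 of them with a control mean of 10 or more and 374 with 100 or more. The highest protein-coding ones were Sertad4 with a mean of 4509, Gpr153 with 2504, Adgrb2 with 2252, Emilin3 with 2052 and Cacng7 with 2001. Tbx18, a mural cell transcription factor, is also listed there only, with 1395. The endothelial table alone held 1172 genes with a value, 679 with a mean of 10 or more and 103 with 100 or more. They were led by the mast cell protease gene Cpa3 with 12211, Sox17, a SoxF factor of arteries, with 4177, Gimap4 with 3365, the platelet gene Gp5 with 3027 and the mast cell gene Cma1 with 2924.

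Transcription factors were grouped by the lineage they are known from. Of 33 mural and mesenchymal factors compared, 22 were higher in pericytes and 1 in endothelial cells, with a median of 4.06. Beside Zic1 and Twist1, Alx4 had 8262 in pericytes and 56.9 in endothelial cells, Foxd1 2297 in pericytes and 16.8 in endothelial cells, and Zic2 2799 in pericytes and 24.2 in endothelial cells. The member on the endothelial side was Epas1, which encodes hypoxia-inducible factor 2 alpha, with 681 in pericytes and 8646 in endothelial cells. Of 26 endothelial factors compared, 12 were higher in endothelial cells and 2 in pericytes. Bcl6b and Sox18 had log2 differences of -5.71 and -5.61, and Ets1 had 1745 in pericytes and 33075 in endothelial cells. The 2 on the pericyte side were Foxc2, at 6.35, and Klf4, at 2.34.

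Sox and Hey factors held members past 4-fold on both sides. Among Sox factors, Sox7 and Sox18 were endothelial, whereas Sox10 and Sox8, of the SoxE group, were higher in pericytes at 4.35 and 2.34, and Sox9 differed little at 0.73. Among forkhead factors, Foxd1, Foxc2, Foxc1, Foxp2 and Foxl2 were higher in pericytes, at 7.03, 6.35, 3.80, 3.65 and 3.07. Foxq1, a factor of brain endothelium, lay within 4-fold at -1.87. Among Hey factors, the Notch effectors, Heyl was higher in pericytes at 4.27 and Hey2 at 2.58, and Hey1 was higher in endothelial cells at -2.45. Id4 was higher in pericytes at 4.30, whereas Id3 lay within 4-fold at -1.56.

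Genes for transfer of signals between the 2 cell types were examined as 45 ligand and receptor pairs, 41 of which had both genes compared. In 6 pairs the ligand was higher in endothelial cells and the receptor in pericytes past 4-fold, and in 3 pairs the reverse held. In 6 pairs both genes were higher in pericytes and in 3 pairs both were higher in endothelial cells. The other 23 pairs had at least 1 gene within 4-fold. Several pairs share a gene, so pairs are not independent. No share over other pairs was computed. The background of 15.4% of genes higher in pericytes and 8.58% higher in endothelial cells holds for single genes. Whether these counts differ from those of unselected pairs was not tested.

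In the platelet-derived growth factor axis, ligands of PDGF receptor beta were higher in endothelial cells and the receptor gene in pericytes. Pdgfb, the ligand that recruits pericytes, had 52.9 in pericytes and 1171 in endothelial cells, a log2 difference of -4.54 (SE at most 0.42). Pdgfd, another ligand of the same receptor, had 118 in pericytes and 878 in endothelial cells. Their receptor gene Pdgfrb had the difference of 5.04 given above, and Pdgfra, the receptor of fibroblasts and glial precursors, 14401 in pericytes and 320 in endothelial cells. Lrp1, a large endocytic receptor that binds PDGF receptor beta, had 18657 in pericytes and 169 in endothelial cells.

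In the VEGF axis the main ligand was higher in pericytes and the receptors in endothelial cells. Vegfa was at 8.21 in endothelial cells, the 5.77th percentile of that table, and at 3282 in pericytes, the 93.7th percentile of theirs. Vegfb and Vegfd were also higher in pericytes, at 4.10 and 4.33, whereas Vegfc, at -0.47, and Pgf, at -0.12, lay within 4-fold. The receptors were endothelial: Flt1 had 150 in pericytes and 8468 in endothelial cells, and Kdr and Flt4 had the values above. Among semaphorins, Sema3c, at 4.11, Sema3a, at 3.72, and Sema3f, at 4.39, were higher in pericytes, while Sema3g, at -3.63, and the receptor gene Plxnd1, at -2.72, were higher in endothelial cells. Across 24 genes of this list 9 were higher in pericytes and 5 in endothelial cells.

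Angiopoietin 1, the ligand that keeps vessels quiet and that perivascular cells supply, did not pass the threshold. Angpt1 had 1664 in pericytes and 665 in endothelial cells, a log2 difference of 1.25 (SE at most 0.39). Its receptor Tek had 244 in pericytes and 9282 in endothelial cells, and Tie1 64.6 in pericytes and 6075 in endothelial cells. Angpt2, the context-dependent antagonist, was higher in endothelial cells at -2.55. Svep1, a matrix protein that binds the receptor Tie1, was higher in pericytes at 7.24.

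Endothelin and sphingolipid genes were split in the same manner. Edn1, the vasoconstrictor peptide, had 7.77 in pericytes and 576 in endothelial cells, and its processing enzyme Ece1 had 1812 in pericytes and 11675 in endothelial cells. The receptor Ednra had 2860 in pericytes and 276 in endothelial cells, a log2 difference of 3.30, whereas Ednrb had one of -2.19. S1pr3 and S1pr2 were higher in pericytes, at 3.31 and 2.06, and S1pr1 was higher in endothelial cells, at -3.14, as was the sphingosine-1-phosphate exporter Spns2, at -3.07. Other pairs with an endothelial ligand and a pericyte receptor were Hbegf at -3.51 with Egfr at 7.01, Dhh at -6.06 with the hedgehog receptor Ptch1 at 2.30, and Il6 at -5.12 with Il6st at 2.26. Pairs with a pericyte ligand were Sema3c with Plxnd1, given above, and Ptn, a heparin-binding growth factor, at 3.34 with Ptprb, a phosphatase of the endothelial surface, at -5.36.

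**Figure D3:**
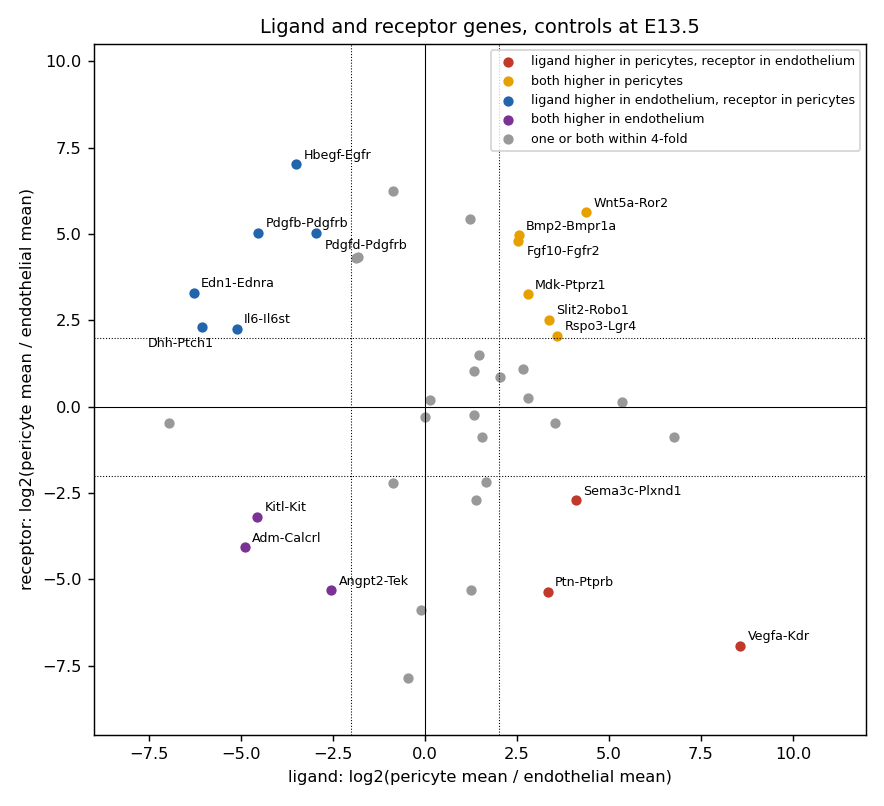
Each point is a ligand and receptor pair, placed by the log2 difference of pericyte over endothelial control means of its ligand (horizontal) and of its receptor (vertical); dotted lines mark 4-fold. The Vegfa and Kdr pair lies at the lower right, and 6 pairs with an endothelial ligand, including Pdgfb and Pdgfrb, lie at the upper left.

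Notch genes were divided member by member. Notch3 and Notch2 were higher in pericytes, at 6.25 and 3.75, and Notch1, at -0.47, and Notch4, at -1.25, lay within 4-fold. The ligand Dll4, which restrains tip cell formation, had 16.5 in pericytes and 1963 in endothelial cells, and Jag2 lay at -3.13. Jag1, the ligand that activates NOTCH3 on mural cells, had 1454 in pericytes and 2527 in endothelial cells, a log2 difference of -0.87. Dlk1, a non-canonical ligand, was higher in pericytes at 3.53, and Mfng, a glycosyltransferase that modifies Notch, was higher in endothelial cells at -6.21. In all 6 of 20 genes were higher in pericytes and 6 in endothelial cells; the median of -0.67 became 0.39 with the widely expressed genes at 0.

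TGF-beta family receptors held members on both sides. Bmpr1a, a type I receptor for BMPs, had 6253 in pericytes and 191 in endothelial cells, and Bmpr1b lay at 2.20. Acvrl1, the type I receptor ALK1 of endothelium, had 418 in pericytes and 3857 in endothelial cells, a log2 difference of -3.28 (SE at most 0.24), and its co-receptor Eng had 613 in pericytes and 11442 in endothelial cells. Tgfbr1, of which the embryos of both groups carry 1 floxed copy, had 5700 in pericytes and 3066 in endothelial cells. Its log2 difference was 0.82 (SE at most 0.24), and Tgfbr2 lay at -0.23. Cre acts in cells that use Pdgfrb, so at Tgfbr1 an effect of Cre cannot be told apart from cell type. Of 22 ligands and latency proteins compared, 13 were higher in pericytes and 1 in endothelial cells. Ltbp3, which anchors latent TGF-beta, had 3052 in pericytes and 54.4 in endothelial cells, Inhba, an activin subunit, 1139 in pericytes and 26.7 in endothelial cells, and Tgfb3 3435 in pericytes and 139 in endothelial cells, while Tgfb1 and Tgfb2 lay at 1.32 and 1.34. Nrros, which holds latent TGF-beta on myeloid cells, was the member on the endothelial side, at -4.51. Of 16 antagonists compared, 9 were higher in pericytes and none in endothelial cells, including Nbl1 at 6.50 and Nog at 3.65.

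Wnt genes lay mostly on the pericyte side, with 32 of 43 higher in pericytes, 2 higher in endothelial cells and a median of 3.27. Fzd2 had 7878 in pericytes and 115 in endothelial cells, and Ror2, a receptor for non-canonical Wnts, had 2589 in pericytes and 49.6 in endothelial cells. Wnt11 and Wnt5a lay at 5.55 and 4.38. The 2 endothelial members were Tspan12, a partner of the receptor FZD4 in brain and retinal endothelium, with 152 in pericytes and 3469 in endothelial cells, and Fzd6, at -2.35. Fzd4 itself lay at -1.49. Adgra2 and Reck, which together sense WNT7 for vessel growth into the brain, were higher in pericytes at 3.96 and 3.57, and the feedback target Axin2 at 3.55, whereas the nuclear effector Lef1 lay at -1.39.

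Axon guidance genes showed the same lean with single endothelial exceptions. Of 19 ephrins and Eph receptors compared, 13 were higher in pericytes, led by Ephb3 at 6.30 and Ephb2 at 6.22. The 1 on the endothelial side was Efna1, with 185 in pericytes and 8164 in endothelial cells. Efnb2 and Ephb4, the arterial and venous pair, lay at 1.47 and 1.49. Of 15 Slit, Robo, netrin and Unc5 genes compared, 10 were higher in pericytes, led by Ntn3 at 7.36 and Ntn1 at 6.77. Robo1, Robo2 and Robo3 lay at 2.52, 4.25 and 4.38, while Robo4, the endothelial member of the family, had 28.0 in pericytes and 2809 in endothelial cells, a log2 difference of -6.72.

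Fibrillar matrix lay on the pericyte side, with 32 of 37 genes higher in pericytes and none in endothelial cells, at a median of 4.61. Col6a3 had 22748 in pericytes and 91.5 in endothelial cells, Col5a1 20609 in pericytes and 111 in endothelial cells, and Col12a1 44025 in pericytes and 290 in endothelial cells. Vcan, a large proteoglycan, had 64292 in pericytes and 628 in endothelial cells. Of 25 basement membrane genes, which both cells are known to make, 7 were higher in pericytes, 1 was higher in endothelial cells and 17 lay within 4-fold, beside 76.0% of all genes within 4-fold. Col4a1 had 13574 in pericytes and 11271 in endothelial cells, Col4a2 10768 in pericytes and 13147 in endothelial cells, and Nid1 15496 in pericytes and 12290 in endothelial cells. The laminin chains differed more, with Lama2 at 5.82, Lamc3 at 5.81 and Lama1 at 3.54, whereas Lama4, the chain of vessel walls, lay at -0.85. Col4a3 was on the endothelial side, at -4.43. Timp2 was higher in pericytes at 5.58, and Timp3 had 7011 in pericytes and 14753 in endothelial cells, a log2 difference of -1.14.

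Of 19 integrin subunits compared, 6 were higher in pericytes, 5 were higher in endothelial cells and 8 lay within 4-fold. Itga11, which pairs with beta 1 to bind collagen, had 2010 in pericytes and 19.8 in endothelial cells, and Itgb5 had 4806 in pericytes and 120 in endothelial cells. Itga8, a subunit of a nephronectin receptor, lay at 2.28, and Itgb8, which with alpha v activates latent TGF-beta, at 3.49. Itga2, at -4.78, Itgb7, at -4.42, and Itgb2, at -4.19, were on the endothelial side; Itgb2 and Itgb7 are known as leukocyte subunits. Itgb1 lay at 0.47.

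Barrier genes past 4-fold were all on the endothelial side. Of 28 blood-brain barrier transporters and regulators compared, 15 were higher in endothelial cells and none in pericytes, with a median of -2.47. Slc2a1, the barrier's glucose transporter, had 1389 in pericytes and 41197 in endothelial cells, a log2 difference of -4.96 (SE at most 0.20). Abcb1a, the drug efflux pump, had 17.3 in pericytes and 908 in endothelial cells, and Mfsd2a, the lipid transporter that restrains transcytosis, 34.4 in pericytes and 969 in endothelial cells. Lsr and Ocln, both tight junction proteins, lay at -4.53 and -3.93. Among glucose transporters Slc2a4, the insulin-regulated one, went the other way at 3.90.

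Of 26 junction genes compared, 1 was higher in pericytes, 10 were higher in endothelial cells and 15 lay within 4-fold. Esam, F11r and Gja5 lay at -7.12, -6.80 and -6.68, and Gja4 and Pcdh12 at -6.36 and -5.76. The 1 on the pericyte side was the connexin gene Gjc1, at 2.31, and the connexin gene Gja1 had 18248 in pericytes and 18526 in endothelial cells. Among cadherins, Cdh5 was endothelial at -4.58, Cdh11 and Cdh6 were higher in pericytes at 5.29 and 4.98, and N-cadherin, Cdh2, through which the 2 cell types adhere, had 2821 in pericytes and 4135 in endothelial cells. Of 22 caveolar and surface genes compared, 15 were higher in endothelial cells, including Cav1 with 234 in pericytes and 11370 in endothelial cells, Plvap, the diaphragm protein of fenestrated vessels, with 53.1 in pericytes and 6553 in endothelial cells, and Cd93 at -7.10. Vcam1 was the 1 on the pericyte side, at 3.39.

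Lists of vessel subtypes were counted next. Of 23 tip cell genes, 12 were higher in endothelial cells and none in pericytes, led by Kcne3 at -8.65, Esm1 at -7.33 and Dll4 at -6.97. Of 18 arterial genes compared, 8 were higher in endothelial cells, including Depp1 at -8.57, and 3 in pericytes, namely Alpl at 4.50, Cxcl12 at 2.80 and Hey2 at 2.58. Of 12 venous genes, 6 were higher in endothelial cells and none in pericytes.

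In the nitric oxide and cyclic nucleotide list, 9 of 23 genes were higher in pericytes and 5 in endothelial cells. Nos3, which makes nitric oxide in endothelium, had 18.5 in pericytes and 1936 in endothelial cells. The subunits of its target enzyme that pericytes are known to use, Gucy1a1 and Gucy1b1, lay at 0.76 and 0.14, while Gucy1a2 lay at 4.05 and the downstream kinase gene Prkg1 at 3.77. Npr2, a natriuretic peptide receptor, was higher in pericytes at 4.79, and Npr1 in endothelial cells at -4.46. Among phosphodiesterases Pde3a was higher in pericytes at 3.77 and Pde2a in endothelial cells at -8.43.

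**Figure D4:**
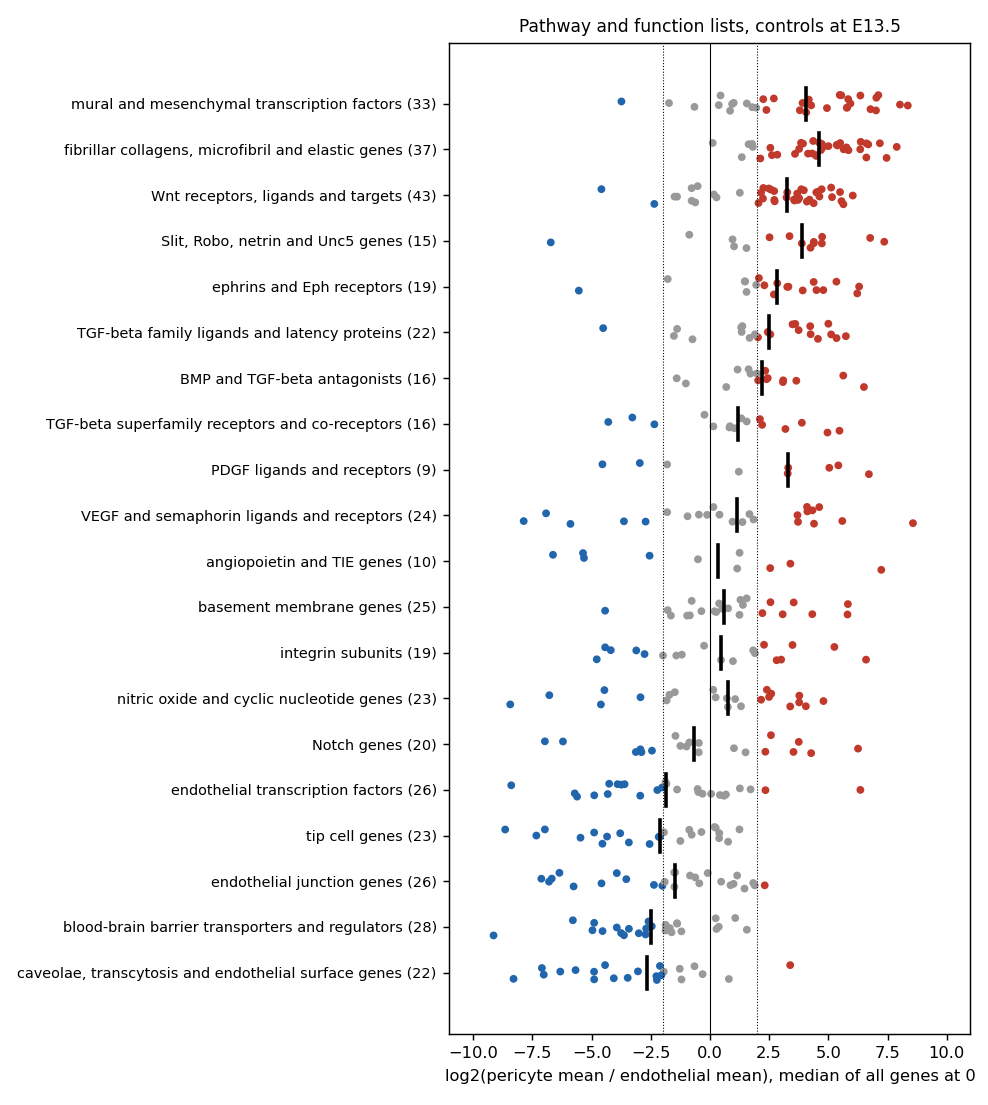
Log2 difference of pericyte over endothelial control means for members of 20 pathway and function lists, with the number compared in brackets, bars at the list medians and dotted lines at 4-fold. Fibrillar matrix has 32 of 37 members on the pericyte side, and the caveolar and barrier lists have 15 members each on the endothelial side.

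Lists of general cell state were also counted, beside 15.4% of all genes higher in pericytes and 8.58% higher in endothelial cells. Of 42 cell cycle genes, 2 were higher in pericytes and 2 in endothelial cells, with a median of -0.77 that became 0.29 with the widely expressed genes at 0. Cdkn1c, a cell cycle inhibitor, had 22837 in pericytes and 1029 in endothelial cells, and Cdkn1a, another inhibitor, lay at -2.57. Of 31 genes that respond to tissue dissociation, 5 were higher in pericytes, led by Jund at 4.76 and Fosb at 3.91, and 4 in endothelial cells, led by Nfkbia at -2.94. The pericyte count was close to the share over all genes. The list median of 0.25 changed sign in some of the alternatives given below. Of 30 glycolysis and hypoxia genes, 4 were higher in endothelial cells and none in pericytes, with a median of -0.48 that became 0.57 with the widely expressed genes at 0. Of 47 ribosomal protein genes 1, Rpl22, passed 4-fold, higher in pericytes at 2.25.

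Promoter sequence was then described, since the grouping did not use it. RefSeq windows of 300 bases (GRCm38.p6, 250 before the annotated start and 50 after it) were matched by symbol to 11404 of the 18943 genes, 60.2%. The windows of 1866 pericyte-high genes had a median of 22 CG dinucleotides, those of 931 endothelial-high genes a median of 9 and those of all genes compared a median of 20. Their median GC content was 63.7% in the pericyte-high set, 56.0% in the endothelial-high set and 60.7% in all. Of 10 motifs searched on both strands, CAGGAAG, a form that ETS factors bind, was held by 8.41% of pericyte-high windows (Wilson 95% interval 7.24 to 9.76) and by 21.2% of endothelial-high windows (18.7 to 23.9). It was held by 12.3% of all windows compared and by 13.0% of 27025 windows in the table. For each gene symbol only the first listed window was kept, which left those 27025 of 32851 entries. The other ETS form searched, CCGGAAG, which cannot share its core with CAGGAAG, was held by 8.09% of pericyte-high windows, 7.63% of endothelial-high windows and 17.3% of all compared, against 9.12% of all in the table.

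Promoters of 4 genes are shown, cut to the 250 bases before the start, as examples chosen after their values were seen. Egfl7, a secreted endothelial protein gene (84.5 in pericytes and 9788 in endothelial cells), and Robo4 are endothelial markers with CAGGAAG before the start. Capitals mark that motif on either strand. Egfl7 is at chr2:26580833-26581082 and Robo4 at chr9:37401722-37401971, both on the plus strand. For Vegfa, at chr17:46032378-46032627, and Zic1, at chr9:91365769-91366018, both on the minus strand, capitals mark CG dinucleotides, of which Vegfa has 11 and Zic1 27, beside 3 in Egfl7 and 2 in Robo4. Medians over the 300-base windows were 22 in the pericyte-high set and 20 in all genes compared. The Vegfa count, taken in 250 bases, was below both, and that of Zic1 was above both.
Egfl7: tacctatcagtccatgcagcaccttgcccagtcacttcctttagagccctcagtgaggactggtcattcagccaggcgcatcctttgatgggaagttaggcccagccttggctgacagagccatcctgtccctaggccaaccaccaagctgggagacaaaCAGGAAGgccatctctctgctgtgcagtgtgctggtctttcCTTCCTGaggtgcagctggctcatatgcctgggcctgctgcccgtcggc
Robo4: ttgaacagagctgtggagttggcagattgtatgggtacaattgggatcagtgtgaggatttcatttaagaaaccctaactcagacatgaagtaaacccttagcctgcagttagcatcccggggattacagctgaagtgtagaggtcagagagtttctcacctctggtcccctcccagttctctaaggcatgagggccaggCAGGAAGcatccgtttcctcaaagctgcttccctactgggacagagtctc
Vegfa: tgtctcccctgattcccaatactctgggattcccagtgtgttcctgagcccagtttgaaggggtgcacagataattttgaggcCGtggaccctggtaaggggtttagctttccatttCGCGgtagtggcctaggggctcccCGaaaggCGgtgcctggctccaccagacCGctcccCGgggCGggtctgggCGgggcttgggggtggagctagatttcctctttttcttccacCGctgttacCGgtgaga
Zic1: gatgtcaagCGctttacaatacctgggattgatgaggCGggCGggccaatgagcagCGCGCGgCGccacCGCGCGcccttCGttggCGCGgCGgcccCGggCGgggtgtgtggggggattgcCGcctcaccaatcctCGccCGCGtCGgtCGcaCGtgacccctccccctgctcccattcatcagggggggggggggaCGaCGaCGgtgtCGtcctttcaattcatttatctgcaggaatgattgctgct

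The share with CAGGAAG also ran with base composition, so it was given within 3 classes of promoter GC content. In the lowest class 10.9% of pericyte-high and 25.9% of endothelial-high windows held it, beside 16.1% of all. In the middle class the shares were 9.70% of pericyte-high, 18.2% of endothelial-high and 12.2% of all windows. In the highest class they were 6.23% of pericyte-high, 12.2% of endothelial-high and 8.59% of all windows. AGATAA, bound by GATA1 and its relatives, was held by 4.45% of pericyte-high and 11.8% of endothelial-high windows, beside 6.43% of all compared and 11.4% in the table. TGACTCA, an AP-1 motif whose reverse complement is TGAGTCA, was held by 2.89% of pericyte-high and 6.66% of endothelial-high windows, 3.37% of all compared and 5.17% in the table. TGTGGTT, a RUNX motif, was held by 2.20% of pericyte-high and 6.44% of endothelial-high windows, 3.60% of all compared and 5.37% in the table. The shares for CATTCCA (TEAD) were 3.48% in pericyte-high and 3.11% in endothelial-high windows, 2.81% of all compared and 4.28% in the table, and those for the CArG box 1.39% in pericyte-high and 1.29% in endothelial-high windows, 1.39% of all compared and 1.57% in the table. CAGCTG, an E-box, was held by 16.1% of pericyte-high and 20.3% of endothelial-high windows, 14.9% of all compared and 16.1% in the table. ACAATG, a Sox motif, was held by 7.13% of pericyte-high and 8.92% of endothelial-high windows, 7.19% of all compared and 12.8% in the table. TATAAA was held by 7.07% of pericyte-high and 12.03% of endothelial-high windows, 7.46% of all compared and 14.2% in the table. Only CAGGAAG was split by GC content, and the part of base composition in the shares of the other motifs was not tested. A match describes letters in a window and does not show binding.

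The same difference was read from the mutant groups, whose libraries the control comparison did not use. Mutant and control means of a cell type were normalized together, apart from those of the other cell type. Any bias between the 2 cell types in scale, transcript length or admixed cells can therefore recur between the mutant groups. Of the 2925 genes higher in control pericytes, 2596, or 88.8%, were also past 4-fold between the mutant groups, and 2 had the opposite sign. Of the 1626 genes higher in control endothelial cells, 1407, or 86.5%, were also past it, and 1 had the opposite sign. Pdgfrb lay at 5.39 between mutants and 5.04 between controls, Kdr at -6.13 between mutants and -6.92 between controls, and Vegfa at 7.42 between mutants and 8.57 between controls. The median size of the change between genotypes was 0.23 over 18816 genes. The difference between genotypes could be tested, as the pericyte minus the endothelial log2 ratio of mutant to control over its SE, and 626 of 16252 genes, 3.85%, passed a Benjamini-Hochberg adjusted p of 0.05 over all of them, in a Wald test that rests on the SE implied by the authors' deposited tables. Of these 143 changed by 1 or more on the log2 scale, 13 of them list members, of which 12 are described in the closing section.

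Length and GC content of the transcript moved with the difference over all genes. The median log2 difference was -0.33 in the class of genes with the shortest transcripts, of 10 classes (median 461 bases), and 1.23 in the class with the longest (median 7786.5 bases). It was -0.27 in the class with the lowest GC content (median 39.2%) and 0.79 in the class with the highest (median 59.1%). With the median of each length and GC class taken off, 2367 of 18455 genes were higher in pericytes, 12.8%, and 1617 in endothelial cells, 8.76%. Pdgfrb then lay at 2.86 and Notch3 at 3.72, while Kdr lay at -7.55 and Vegfa at 8.51. The list median was then 2.58 for pericyte markers (2.52 without the correction) and -6.61 for endothelial markers (-5.89 without it), became 1.00 for contractile genes and 1.65 for cartilage and bone progenitor markers, and changed sign, to -0.64 for basement membrane genes (0.58 without the correction), -1.21 for integrin subunits (0.47 without it) and -0.01 for the VEGF and semaphorin list (1.16 without it). This correction also removes any true difference that long or GC-rich genes share.

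**Figure D5:**
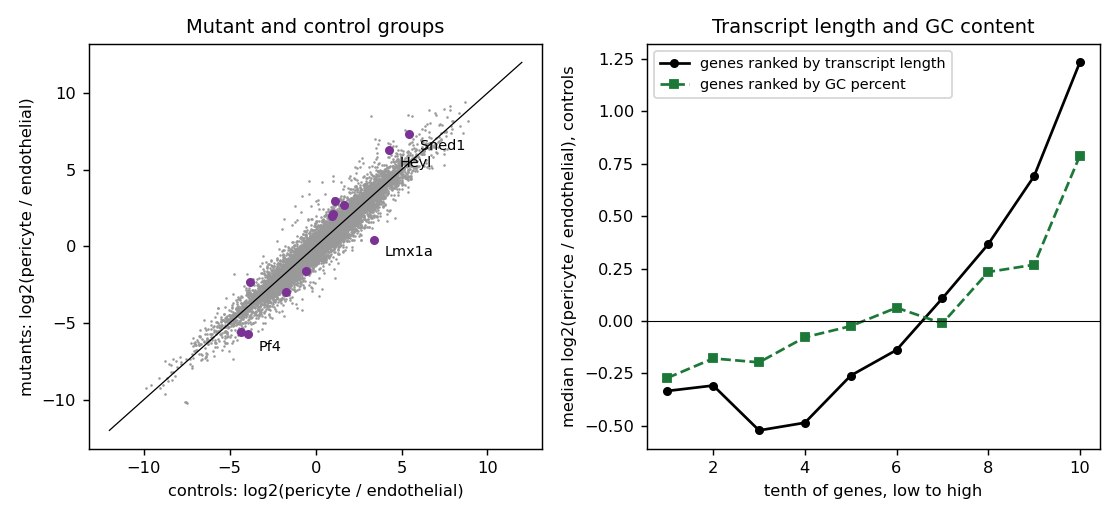
Left, log2 difference of pericyte over endothelial means between mutant groups (vertical) and between control groups (horizontal), with the line of equality. Purple points are 12 list members whose difference changed between genotypes. Right, the median difference in controls over 10 classes of genes ranked by transcript length or GC content, which is -0.33 for the shortest, -0.52 for the third class and 1.23 for the longest transcripts, and -0.27 for the lowest and 0.79 for the highest GC.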

How the data were processed

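Sorted cells gave mRNA libraries (KAPA HyperPrep) that were run on a NovaSeq6000 according to the labels' protocols. The submitters' processing notes name mm10, Partek, DESeq2 and Bowtie2 with no version, while annotation, counting and model are not given in the sources used here. Each E13.5 and E11.5 table sets mutant against control and, per the file headers, holds a p-value, a ratio, a signed fold change (treated as a score) and a least-squares mean for both groups. These deposited means were taken as signal values, normalized by the authors on an unstated scale. Library depths are therefore unknown, levels have no counting interval, and means have no SD because values per library were not analysed here.

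The log2 difference of the control means was centred on its median. The SE limit divides each log2 ratio by the normal deviate that its two-sided p implies, summed in quadrature over both tables, and assumes a Wald test; it was left out where the deviate was under 0.1. Nothing says that libraries came from separate embryos, so p-values reflect only the spread among libraries, which may be technical. The members, the 45 gene lists, 45 pairs and 21 families were chosen with earlier results of these data known, and 4 blood cell lists were added after seeing them. Named genes are Pdgfrb, Rgs5, Cldn5, Kdr, the 15 largest differences per direction with a mean of 500 or more (leaving out Xist, Y-linked genes, pseudogenes and Gm or Rik names), up to 6 members per list past 4-fold in the main direction and 3 in the other, pair and family members, and the 5 highest protein-coding genes listed in 1 table only; other names were chosen after their values were seen, and some genes that the rule names are not reported here. Lengths, GC content and positions are from GENCODE M21 (mm10), which covered 97.4% of genes. Scripts ran in Python 3.11.15 with scipy 1.17.1, pandas 2.3.3 and numpy 2.4.6, figures used matplotlib 3.10.9, and the steps were tested on simulated data. Wilson intervals cover counting error only. Alternatives were 2 other scalings, ranks within tables, other filters, pseudocounts and thresholds, the mutant groups, E11.5 pericytes and, added after the data were seen, a correction in 10 length by 5 GC classes.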

Additional observations from a re-analysis of the deposited data

Results flagged for a closer look

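The pericyte over endothelial difference of the following 12 list members differed between mutant and control groups. This was by the Benjamini-Hochberg adjusted Wald test over 16252 genes described above, with a change of 1 or more on the log2 scale. In that test 2520 genes had an unadjusted p under 0.05. Each value is the difference between mutants minus that between controls, from the ratios and p-values of the authors' deposited tables. The mutant groups are labelled GMH-IVH as their disease state. A change can lie in either cell type, and the part of admixed cells in these changes was not tested.

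Sned1, a matrix protein gene, changed by 1.88 (SE 0.35, adjusted p = 6.1e-05), with 12528 in mutant and 5887 in control pericytes and 73.8 in mutant and 128 in control endothelial cells. Rps27, a ribosomal protein gene, changed by -1.06 (SE 0.23, adjusted p = 0.000644), with 265 in mutant and 283 in control pericytes and 767 in mutant and 395 in control endothelial cells. Edil3, an integrin-binding matrix protein gene, changed by 1.82 (SE 0.41, adjusted p = 0.00129), with 1818 in mutant and 1744 in control pericytes and 222 in mutant and 751 in control endothelial cells. Pf4, a platelet chemokine gene, changed by -1.79 (SE 0.41, adjusted p = 0.00149), with 107 in mutant and 124 in control pericytes and 5418 in mutant and 1821 in control endothelial cells. Trpc6, a cation channel gene, changed by 1.49 (SE 0.34, adjusted p = 0.00149), with 74.5 in mutant and 25.6 in control pericytes and 349 in mutant and 338 in control endothelial cells. Lmx1a, a transcription factor of midline neural tissue, changed by -2.99 (SE 0.78, adjusted p = 0.00793), with 249 in mutant and 228 in control pericytes and 179 in mutant and 20.7 in control endothelial cells. Heyl, a Notch effector, changed by 2.00 (SE 0.54, adjusted p = 0.0104), with 1153 in mutant and 1042 in control pericytes and 14.2 in mutant and 51.3 in control endothelial cells.

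Tgfbr3, the TGF-beta co-receptor betaglycan, changed by 1.08 (SE 0.29, adjusted p = 0.0119), with 3492 in mutant and 2512 in control pericytes and 772 in mutant and 1170 in control endothelial cells. Snai2, a mesenchymal transcription factor, changed by 1.06 (SE 0.29, adjusted p = 0.0138), with 1918 in mutant and 1566 in control pericytes and 458 in mutant and 779 in control endothelial cells. Nfe2, a megakaryocyte and erythroid transcription factor, changed by -1.25 (SE 0.36, adjusted p = 0.0212), with 46.4 in mutant and 53.7 in control pericytes and 2125 in mutant and 1030 in control endothelial cells. Edn3, an endothelin ligand, changed by 1.04 (SE 0.31, adjusted p = 0.0241), with 1089 in mutant and 986 in control pericytes and 159 in mutant and 296 in control endothelial cells. Rps29, a ribosomal protein gene, changed by -1.25 (SE 0.38, adjusted p = 0.0289), with 34.5 in mutant and 37 in control pericytes and 259 in mutant and 116 in control endothelial cells.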

How the results depend on the processing

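The count of genes higher in pericytes past 4-fold, 2925, and that of genes higher in endothelial cells, 1626, stayed within 1.5 times under equal summed means, the other filters, pseudocounts of 1 and 10, the mutant groups and the length and GC correction. With the widely expressed genes set to 0 the counts were 5798 and 733. At 2-fold they were 5595 and 4628, and at 8-fold 1381 and 763. With E11.5 control pericytes 1324 genes were higher in pericytes and 1120 in endothelial cells. The 33 single genes followed through the alternatives (the markers Pdgfrb, Rgs5 and Kdr and the 15 largest differences per direction) kept their sign in all that could be computed, percentile differences within tables included, as did every list median past 4-fold. Most of these genes were chosen for the size of their difference. The scalings moved the median by at most 1.06, so they could not change the sign of a value past 4-fold. A kept sign is therefore no test of robustness for these genes and lists. Smaller list medians changed sign. With E11.5 pericytes this held for Schwann (-0.22), epithelial (-0.15), VEGF and semaphorin (-0.08), Notch (0.13), basement membrane (-0.37), integrin (-0.19), dissociation (-0.50) and ribosomal (-0.07) lists; between mutant groups for dissociation (-0.33) and ribosomal (-0.13) lists; with a minimum mean of 100 for integrins (-0.27); and with the length and GC correction for dissociation (-0.15) beside the lists given above. The causes were not tested. When only the bases before the start were searched, CAGGAAG was held by 7.02% of pericyte-high and 16.6% of endothelial-high promoters. In that search it was held by 9.87% of the promoters of all genes compared. No paired analysis was possible because the files used give group means and no values per library, and leaving out a replicate was not run for the same reason. Depth per library is unknown.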

Other observations

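Further gene groups were described in the same manner, against the same background of 15.4% of genes higher in pericytes and 8.58% higher in endothelial cells. Of 29 chemokine and vasoactive peptide genes, 7 were higher in pericytes and 15 in endothelial cells, with Agtr2, an angiotensin receptor, at 5.55 and Adm, which encodes adrenomedullin, at -4.89. Of 18 ion channels and pumps of mural cells, 6 were higher in pericytes and 4 in endothelial cells, with the calcium channel gene Cacna1c at 6.01 and the ATP receptor gene P2rx1 at -6.59. Of 33 vessel-associated secreted proteins, 10 were higher in pericytes and 7 in endothelial cells, with Thbs2 at 5.01 and Mmrn2 at -7.85. Of 23 genes grouped as TGF-beta and BMP targets, 10 were higher in pericytes and 4 in endothelial cells. Postn lay at 4.79 and Dusp6 at -3.37, and whether the grouped genes respond to these ligands here was not tested. Of 16 TGF-beta family receptors, 6 were higher in pericytes and 3 in endothelial cells, and of 9 PDGF genes 5 and 2. Of 10 angiopoietin and TIE genes, 3 were higher in pericytes and 4 in endothelial cells.

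Markers of further cell types were counted likewise. Of 8 Schwann and neural crest markers, 4 were higher in pericytes, with Ngfr at 3.79. Of 4 skeletal muscle markers compared, 3 were, with Pax7 at 3.19. Of 10 epithelial and choroid plexus markers, 3 were, with Ttr at 3.39. Of 5 oligodendrocyte precursor markers, 4 were, 2 of which, Pdgfra and Cspg4, mural or mesenchymal cells also express. Of 6 Hox and positional genes, 4 were, with Lmx1a at 3.39. None of these 5 lists had a member higher in endothelial cells past 4-fold. Of 24 widely expressed genes, 1 was higher in pericytes, Polr2a at 2.46, and 2 in endothelial cells, Hprt at -2.71 and B2m at -2.60.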
